A study of Rattus norvegicus with 18 samples.

Results

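This account covers gene families known for enzymes that add or remove acetyl and methyl groups on histone lysines. They were measured in rat hippocampus in 2 models of acquired epilepsy. Members were taken by symbol, so not every one need act on histones or be an enzyme. Members were the rows of the deposited count table whose symbol starts with Hdac, Sirt, Kdm, Kmt, Kat, Setd or Ezh and a digit (or Setdb and a digit), plus Ep300, Crebbp, Ehmt1, Ehmt2, Suv39h1, Suv39h2, Eed, Suz12, Dot1l and Nsd1, with at least 10 counts in at least 3 libraries. The pattern matched 57 of the 17455 rows. All 57 met the count rule and all 57 entered the tests, and the lowest count in any library was 25 (Kdm4d). A working label for this set speaks of deacetylases, methyltransferases and demethylases, but the rule also took in 7 lysine acetyltransferases. Ep300, Suz12 and 18 other family members on the role lists, Kmt2a to Kmt2d among them, are not analysed here.

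The rats were adult male Sprague-Dawley animals. In the kainic acid (KA) model, electrodes were implanted and status epilepticus was brought on by stepwise systemic doses of kainic acid, a glutamate receptor agonist. In the kindling (KI) model, rats with electrodes in the hippocampus were stimulated electrically on a repeated schedule until kindled. The left hippocampus was taken 24 hours after the last seizure. The KA arm holds 7 sham libraries and 3 labelled 3 Class V, and the KI arm holds 4 of each. The sources used here do not say what the shams received or what "3 Class V" means in each model. They speak of hippocampi from each animal without stating that every library is a separate animal, so the p-values measure the spread between these libraries.

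DNA in the nucleus is wrapped around histones, and chemical marks on histone lysines set how accessible a gene is. Acetyltransferases such as Crebbp add acetyl groups, a mark of active genes. Histone deacetylases (HDACs) and the NAD-dependent sirtuins remove them. Methyltransferases and demethylases write and erase methyl marks whose meaning depends on the lysine: methylation of lysine 4 of histone H3 (H3K4) marks active promoters, and that of H3K9 and H3K27 marks silenced chromatin. In the hippocampus HDAC activity restrains memory-related transcription, and deacetylase inhibition is among the known actions of the antiseizure drug valproate.

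Total counts ran from 30925368 to 49943021 per library, and the 57 genes took 0.278% to 0.395% of them. All 8 hippocampal principal cell markers (Prox1, Neurod6 and others) were detected in every group. A score of 76 ribosomal protein genes (mean log2 deviation from the gene mean) spanned −0.43 to 0.84 for KI sham, −0.55 to −0.21 for KI 3 Class V, −0.58 to 1.07 for KA sham and −0.14 to 0.08 for KA 3 Class V. Ribosomal RNA-like rows took 16.4% of the counts in KI sham 2, 16.3% in KI 3 Class V 1 and 9.67% in KA sham 4. The other 15 libraries held 0.571% to 2%. Levels below are CPM, counts scaled to a common total by library size and TMM factor. The KI 3 Class V libraries are also called the kindled libraries. A gene was called when the Benjamini-Hochberg adjusted p of edgeR's quasi-likelihood test, over 13338 genes, was under 0.05.

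In kindling, 2 of the 57 genes fell (Hdac1 and Sirt2) and 2 rose (Setd7 and Setd5). In the KA model 0 of 57 were called. The 4 genes called in KI make up 7.02% of the members, against 9.99% of all genes tested (4.74% higher and 5.25% lower). In KA the background was 0.172%. The KA change minus the KI change was called for 1 gene, Hdac1, against 3.8% of all genes (3.15% higher and 0.652% lower). In KI and in the difference, the share of members called was below that of all genes, but these shares rest on 4 genes and 1 gene. In KA so few genes were called that 0 of 57 says little about the members. At an unadjusted p under 0.05, edgeR placed 20 of 57 in KI (12 higher and 8 lower, 35.1%), against 35.4% of all genes (17.2% higher and 18.2% lower). In KA it placed 4 of 57 (1 higher and 3 lower, 7.02%), against 9.93% (6.34% higher and 3.59% lower). The median log2 change of the members was 0.12 in KI and 0.02 in KA, beside −0.04 and −0.01 over all genes tested.

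**Figure D1:**
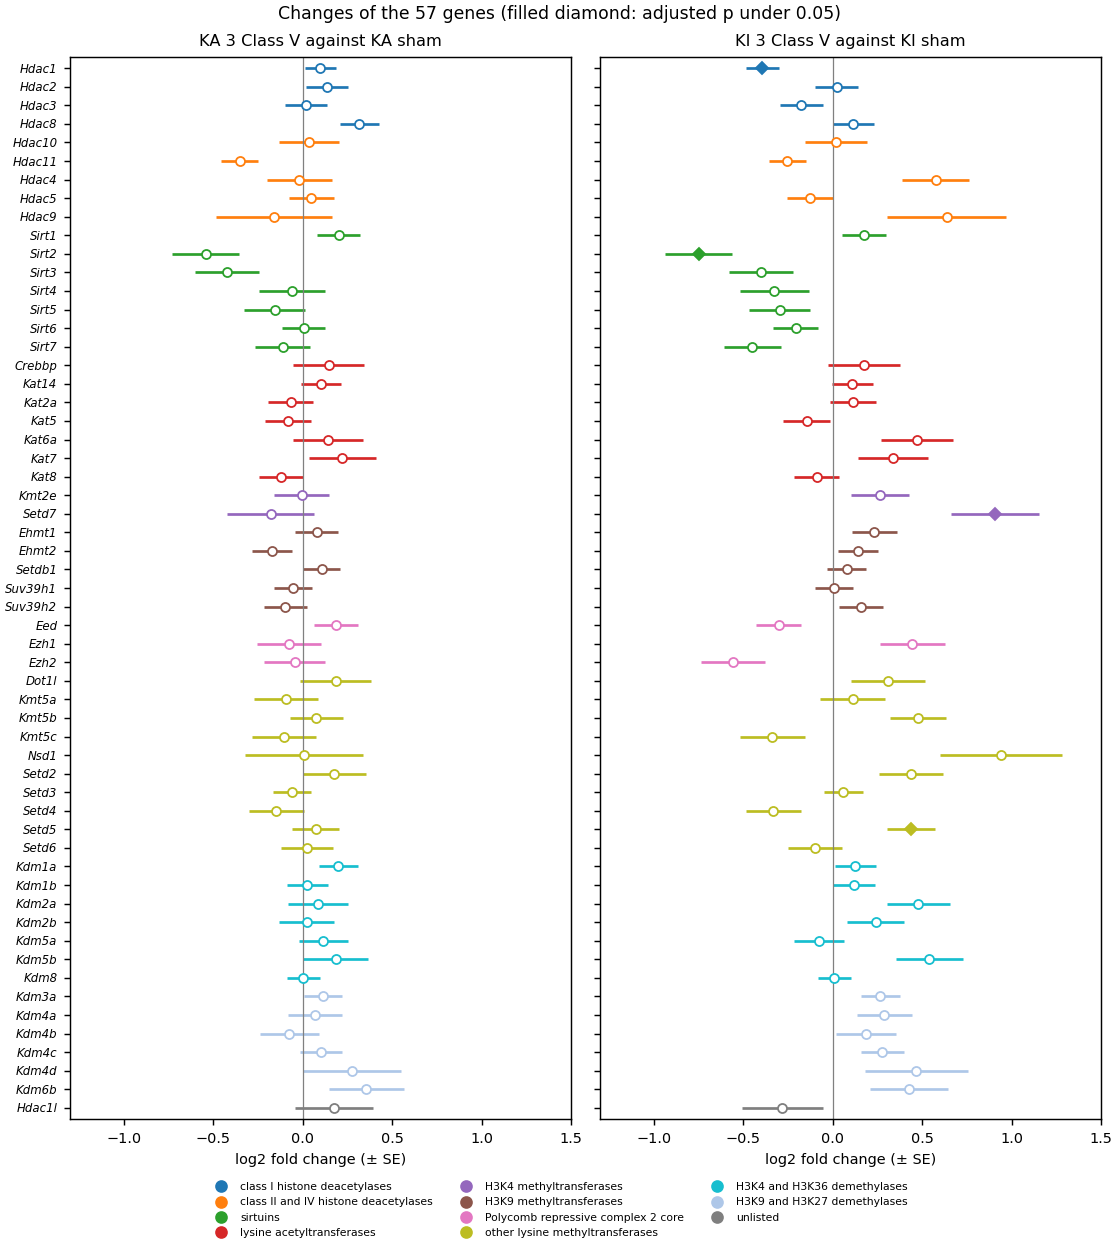
Log2 fold change with its standard error for each of the 57 genes (rows, coloured by role), KA 3 Class V against KA sham on the left and KI 3 Class V against KI sham on the right. Filled diamonds mark the 4 called genes, all of them in the KI panel, where Hdac1 (−0.39) and Sirt2 (−0.75) lie left of 0 and Setd7 (0.91) and Setd5 (0.44) right of it.

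The kindling comparison asks which of these enzymes differ between kindled rats and their shams. Hdac1, a class I deacetylase of the NuRD, Sin3 and CoREST corepressor complexes, stood at 44.2, 35.6, 43.6 and 38.3 CPM in the 4 KI shams. In KI 3 Class V it stood at 28.8, 32.5, 30.6 and 31.2 CPM, with every library below every sham. The mean went from 40.4 ± 4.17 CPM (SD, n = 4) to 30.8 ± 1.52 CPM (SD, n = 4). The log2 change was −0.39 ± 0.09 (SE, edgeR adjusted p = 0.0282), a fold of 0.762. The call ended without KI sham 3 (−0.36, edgeR adjusted p = 0.0699) or without KI 3 Class V 1, 2 or 3 (edgeR adjusted p = 0.1, 0.0625 and 0.0862). Hdac1l, listed as Hdac1-like, stood at about 1 CPM (0.757 to 1.53 CPM over the 18 libraries). How reads that fit both genes were counted is not known, which leaves each single value uncertain. With both rows summed, Hdac1 kept its call (−0.39, edgeR adjusted p = 0.0284).

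Sirt2, a deacetylase of tubulin and histones that is abundant in myelinating oligodendrocytes, stood at 459, 452, 409 and 472 CPM in the KI shams. In KI 3 Class V it stood at 255, 273, 253 and 286 CPM, again with no overlap. The log2 change was −0.75 ± 0.19 (SE, edgeR adjusted p = 0.0325), a fold of 0.595. Of 8 oligodendrocyte markers 2 fell in the same comparison, Cnp (−0.74) and Cldn11 (−0.82), and all 8 had negative changes. Their summed level was 15810 to 21230 CPM in the KI shams, against 9927 to 13930 CPM in the kindled libraries, with 0 markers at 0. Their part in the Sirt2 result was not tested. In whole tissue, fewer cells of a type and less RNA per cell cannot be told apart. The Sirt2 call ended without KI sham 2 (edgeR adjusted p = 0.0526), KI sham 3 (0.0635) or KI 3 Class V 1, 2 or 3 (0.103, 0.0666 and 0.0903), while the log2 change stayed between −0.80 and −0.73.

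Setd7, which places the first methyl group on H3K4 and also methylates other proteins, stood at 13.97, 34.7, 41.4 and 53.3 CPM in the KI shams. It stood at 71.2, 60.8, 69.7 and 67.5 CPM in KI 3 Class V, above every sham. KI sham 1 lay far below the other 3 shams. The rise was 0.91 ± 0.25 in log2 (SE, edgeR adjusted p = 0.0376), a fold of 1.87. Without KI sham 1, the lowest, it was 0.64 and was still called (edgeR adjusted p = 0.018). The call ended without KI sham 2 or 3 (edgeR adjusted p = 0.0705 and 0.0656) or without any KI 3 Class V library (0.0569 to 0.106). Setd5, a SET domain gene linked to intellectual disability, stood at 73.2, 70.1, 73.3 and 103 CPM in the KI shams, against 111, 112, 108 and 102 CPM in the kindled libraries. KI sham 4 lay inside the kindled range. The rise was 0.44 ± 0.14 (SE, edgeR adjusted p = 0.0494), a fold of 1.35. This call held without KA sham 1, 2 or 6 or KI sham 4 and ended without any of the other 14 libraries (edgeR adjusted p = 0.0505 to 0.126).

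In the same comparison, 2 of 8 neuron markers rose, Syt1 (1.21) and Slc17a7 (0.65), and 5 of 9 microglia markers fell, among them Aif1 (−1.64) and C1qa (−1.37). The summed neuron markers stood at 4142 to 5107 CPM in the KI shams, against 6639 to 7752 CPM in the kindled libraries. The summed microglia markers stood at 778 to 1598 CPM and 552 to 574 CPM. Among markers of other types, Aqp4 of astrocytes rose (0.61), and Olig1 of oligodendrocyte precursors (−0.48), Cldn5 of endothelium (−0.53) and C1ql2 of dentate granule cells (−1.23) fell. These were single calls from lists of mixed sign. Astrocyte markers had 4 positive and 4 negative changes, and precursor markers 2 and 4. Endothelial and pericyte markers had 4 and 3, and principal cell markers 4 and 4, with Prox1 at 1.07. Of 7 choroid plexus markers 0 were called and all had negative changes (median −2.05, 6 at an unadjusted p under 0.05). KI sham 4 was the highest KI sham for each of them, with Ttr at 886.6 CPM against 11.5 to 39.2 CPM in the other KI shams. With the covariate of ribosomal protein score, 0 of the 57 genes were called in KI (7 at an unadjusted p under 0.05) and 0.885% of all genes, and the log2 change was −0.29 for Hdac1, −0.51 for Sirt2, 0.67 for Setd7 and 0.19 for Setd5. Without the 3 libraries rich in ribosomal RNA-like counts, 0 of 57 members and 17 of all genes (0.128%) were called. There the log2 changes were −0.42 for Hdac1, −0.73 for Sirt2, 0.86 for Setd7 and 0.36 for Setd5. The part of cell make-up and of library quality in these 4 results was not tested further. With each model fitted alone, Hdac1, Setd7 and Setd5 were no longer called (edgeR adjusted p = 0.0671, 0.104 and 0.0741). With upper quartile factors 1 member rose and 3 fell, in place of 2 and 2 (333 and 978 of all genes, in place of 632 and 700).

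**Figure D2:**
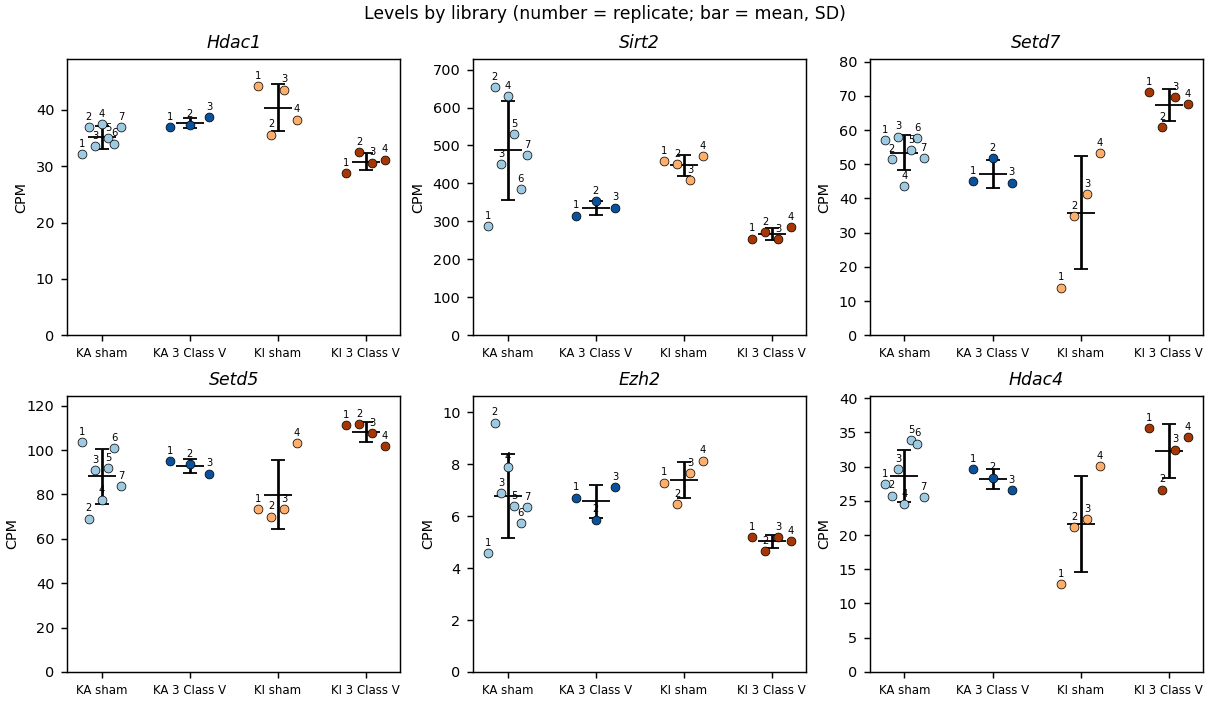
CPM of 6 genes in each of the 18 libraries (numbers give the replicate, the bar the mean and its SD), for the 4 groups. KI 3 Class V lies below every KI sham for Hdac1, Sirt2 and Ezh2 and above every KI sham for Setd7. KI sham 4 reaches 103 CPM for Setd5 and 30.02 CPM for Hdac4, inside the kindled range, and KI sham 1 is lowest for Setd7 (13.97 CPM) and Hdac4 (12.8 CPM).

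The promoters of Hdac1 and Sirt2, which fell, and of Ezh2, which just missed the threshold, are shown because they differ in the elements they carry. They were thus picked with their matches known, and Setd7 and Setd5, which rose, are not shown. Of the 57 genes, 48 matched a window of 250 bases before to 50 bases after the start site in RefSeq (build GRCr8). Capitals mark matches, on either strand, to 5 motifs. The GC box was searched as GGGCGG and the CCAAT box by the letters of its name. The cAMP response element was searched as TGACGTCA, the E2F site as TTTGGCGC and the YY1 site as AANATGGC. In Hdac1, 3 GC boxes overlap each other.
Hdac1 promoter, chr5:147165338-147165637, minus strand: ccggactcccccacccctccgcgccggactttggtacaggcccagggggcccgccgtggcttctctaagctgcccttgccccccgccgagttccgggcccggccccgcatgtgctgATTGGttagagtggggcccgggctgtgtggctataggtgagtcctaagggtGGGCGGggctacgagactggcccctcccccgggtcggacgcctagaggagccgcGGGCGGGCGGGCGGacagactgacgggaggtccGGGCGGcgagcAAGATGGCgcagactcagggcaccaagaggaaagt
Sirt2 promoter, chr1:93181222-93181521, plus strand: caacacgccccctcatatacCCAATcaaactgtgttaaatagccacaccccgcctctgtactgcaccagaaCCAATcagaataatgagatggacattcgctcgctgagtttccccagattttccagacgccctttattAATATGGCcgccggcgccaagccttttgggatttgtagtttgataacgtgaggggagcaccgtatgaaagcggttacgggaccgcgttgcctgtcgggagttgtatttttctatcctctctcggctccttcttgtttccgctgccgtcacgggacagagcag
Ezh2 promoter, chr4:77687134-77687433, minus strand: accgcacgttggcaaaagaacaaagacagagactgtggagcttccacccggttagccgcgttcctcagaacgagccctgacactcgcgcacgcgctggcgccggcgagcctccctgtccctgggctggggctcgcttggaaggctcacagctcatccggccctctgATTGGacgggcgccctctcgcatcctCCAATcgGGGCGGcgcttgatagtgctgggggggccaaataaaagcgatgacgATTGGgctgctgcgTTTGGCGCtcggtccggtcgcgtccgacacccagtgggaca
The Hdac1 window held 5 GC boxes, 1 CCAAT box and 1 YY1 match, that of Sirt2 held 2 CCAAT boxes, 1 YY1 match and 0 GC boxes, and that of Ezh2 held 3 CCAAT boxes, 1 GC box and an E2F match. Of the 48 member windows, 33 held a GC box (68.8%, against 34.9% of 27457 RefSeq windows and 60% of the 10462 whose gene was tested). A CCAAT box was in 24 (50%, against 37.7% and 37.1%). The YY1 letters were in 7 (14.6%, against 7.36% and 9.25%), namely Crebbp, Dot1l, Hdac1, Kat5, Kat7, Sirt2 and Suv39h2. The E2F letters were in Ezh2 alone of the 48 (2.08%, against 0.521% of RefSeq windows and 0.87% of those of tested genes). The cAMP response element was in Suv39h2 alone (2.08%, against 1.91% and 2.98%). In Hdac1 a GC box (position 5) and the YY1 match (position 16) lie after the start site, in transcribed sequence. The E2F match of Ezh2 (position 10) does too. These are matches of letters and were not tested as binding sites.

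Among the other deacetylases, none passed in KI. Hdac4, a class IIa enzyme that binds MEF2 factors and shuttles out of the nucleus with neuronal activity, stood at 12.8, 21.2, 22.4 and 30.02 CPM in the KI shams, against 35.6, 26.6, 32.5 and 34.2 CPM in the kindled libraries. KI sham 4 overlapped the kindled libraries, and the log2 difference was 0.58 ± 0.19 (SE, edgeR adjusted p = 0.0550). Hdac9, of the same class, differed by 0.64 ± 0.33 (edgeR adjusted p = 0.174), with 4.01 CPM in KI sham 1 and 18.8 to 25.3 CPM in the other 3 shams. Hdac5 (−0.13 ± 0.13) and Hdac2, the class I enzyme tied to memory (0.02 ± 0.12), stayed within the spread of the shams, and Hdac3 stood at −0.18 ± 0.12. Hdac11, the class IV enzyme, was at −0.25 ± 0.10 (edgeR adjusted p = 0.0978), and KI sham 4 (180 CPM) lay inside the kindled range of 168 to 182 CPM.

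Of the 7 sirtuins, Sirt2 fell, 6 did not pass, and 6 of the 7 had a negative change in KI (median −0.33). Sirt7, a nucleolar sirtuin, stood at 26.7, 28.2, 28.1 and 21.3 CPM in the KI shams, against 18.2, 17.96, 17.9 and 22.3 CPM in the kindled libraries (−0.45 ± 0.16, edgeR adjusted p = 0.0664). Sirt3, the main mitochondrial deacetylase, was at −0.40 ± 0.18 (edgeR adjusted p = 0.121). Sirt1, which links NAD levels to transcription, was the one sirtuin with a positive value (0.18 ± 0.12). It measured 9.33 ± 1.15 CPM in the KI shams, against 10.5 ± 1.30 CPM in the kindled libraries (SD, n = 4 each), which overlapped.

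Of 7 acetyltransferases, 0 passed in KI. Kat6a stood at 31.4, 52.6, 58.8 and 91.6 CPM in the KI shams, a range that takes in all 4 kindled libraries (77.6 to 84.9 CPM), with a log2 difference of 0.47 ± 0.20 (edgeR adjusted p = 0.111). Crebbp, the coactivator that binds phosphorylated CREB, was at 0.18 ± 0.20 and Kat7 at 0.34 ± 0.19.

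The Polycomb repressive complex 2 places methyl groups on H3K27 through Ezh2 or Ezh1 with Eed as a scaffold. In KI 0 of its 3 measured members passed, and they did not share a sign. Ezh2, the catalytic subunit of dividing cells, stood at 7.30, 6.47, 7.67 and 8.15 CPM in the KI shams, against 5.20, 4.66, 5.21 and 5.05 CPM in the kindled libraries. The groups did not overlap, and the difference was −0.56 ± 0.18 in log2 (edgeR adjusted p = 0.0531). Eed stood at 20.5 to 23.1 CPM in the KI shams, against 15.1 to 19.6 CPM in the kindled libraries, also without overlap (−0.30 ± 0.13, edgeR adjusted p = 0.102). Ezh1, the catalytic subunit of non-dividing cells such as neurons, lay the other way at 0.44 ± 0.18 (edgeR adjusted p = 0.0991). Over the 57 genes, 7 had groups without overlap in KI (12.3%, against 20.2% of all genes, 12.1% higher and 8.07% lower): Setd7 and Kdm5b were higher, and Hdac1, Hdac1l, Sirt2, Ezh2 and Eed were lower.

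Of the methyltransferases outside Polycomb, Setd7 and Setd5 rose and 15 did not pass. Kmt5b, which adds further methyl groups to lysine 20 of histone H4, was at 0.48 ± 0.15 (edgeR adjusted p = 0.0549). Nsd1, an H3K36 methyltransferase whose loss causes Sotos syndrome, had the largest log2 difference of the 57 in KI, 0.94 ± 0.34 (edgeR adjusted p = 0.0710). Its levels were 21.4, 47.2, 60.6 and 118 CPM in the KI shams, against 125, 118, 123 and 110 CPM in the kindled libraries, so that KI sham 4 sat among the kindled libraries. All 5 H3K9 methyltransferases had small positive values with 0 passing, Ehmt1 at 0.23 ± 0.12 and Ehmt2 (G9a) at 0.14 ± 0.11. Kmt2e, which belongs to the H3K4 family by sequence, was at 0.26 ± 0.16. The 13 demethylases were split by substrate into 7 for H3K4 and H3K36 and 6 for H3K9 and H3K27, and 0 passed in KI. In the second list all 6 had positive values (0.19 to 0.47), among them Kdm6b, an activity-induced H3K27 demethylase (0.43 ± 0.22), Kdm3a (0.26 ± 0.11) and Kdm4c (0.28 ± 0.12). In the first list Kdm5b stood at 48.3, 47.7, 41.0 and 62.2 CPM in the KI shams, against 74.1, 75.5, 76.0 and 64.0 CPM in the kindled libraries (0.54 ± 0.19, edgeR adjusted p = 0.0639), and Kdm2a at 0.48 ± 0.18. Kdm1a (LSD1), the eraser of the CoREST complex, was at 0.13 ± 0.11.

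The KI shams were the most scattered of the 4 groups for these genes. The median SD of log2 CPM over the members was 0.254 for KI sham, 0.176 for KA sham, 0.102 for KA 3 Class V and 0.0976 for the kindled libraries, each below the median over all genes of that group (0.349, 0.274, 0.146 and 0.131). Of the 57 genes, KI sham 1 was the lowest KI sham for 18 and the highest for 26, and KI sham 4 was the lowest for 18 and the highest for 25. KI sham 1 also stood apart for genes outside the set. Map2 was at 91.5 CPM there (618.8 to 922.2 CPM in the other KI shams) and Zbtb20 at 113.4 CPM (22.9 to 40.25 CPM). Map2 and Zbtb20 were named here after their values were seen. KI sham 4 lay inside the KI 3 Class V range for 29 of 57, against 10, 8 and 11 for KI sham 1, 2 and 3. Ttr, a choroid plexus marker, stood at 886.6 CPM in KI sham 4, against 11.5 to 39.2 CPM in the other KI shams, and Kl, Clic6 and Kcnj13 were highest there too. Among the KA shams, KA sham 3 was highest for the same genes, with Ttr at 571.9 CPM against 11.2 to 63.8 CPM in the others. The part of these markers in the values was not tested. Without KI sham 4, 15 members rose and 8 fell (32.3% of all genes called), in place of 2 and 2. Without KI sham 3 and 4 together, 14 rose and 8 fell (28.0% of all genes). Without KI sham 3 no member was called (0.999% of all genes), nor without KI 3 Class V 1, 2 or 3 (0.0675% of all genes in each case). Without KI sham 2 Hdac1 alone was called (3.4%), and without KI 3 Class V 4 Hdac1 and Sirt2 were (3.95%). Without KA sham 2 the count was 9 (18.3% of all genes). Calls over all genes thus moved with those of the members in these fits. DESeq2 called 11 members (7 higher and 4 lower) and limma-voom 37 (26 and 11), beside 21.2% and 55.1% of all genes. The limma-voom fit, here and below, used sample quality weights, which count more variable libraries less.

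**Figure D3:**
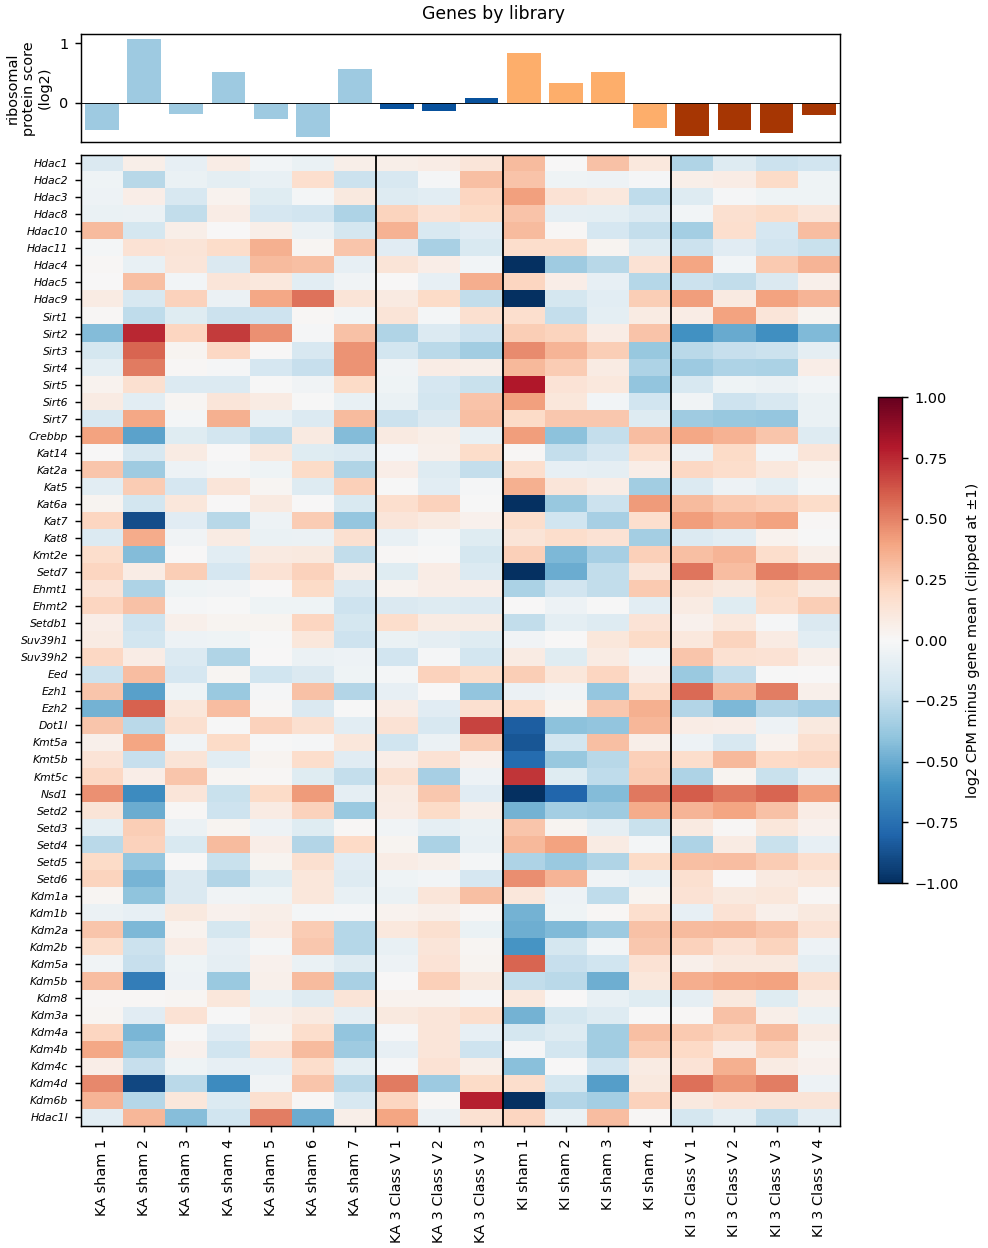
Log2 CPM of each of the 57 genes minus its mean over the 18 libraries (colour, clipped at 1 either way), with the ribosomal protein score of each library above. KI sham 1 is low for Hdac4, Hdac9, Kat6a, Setd7, Nsd1 and Kdm6b, KI sham 4 resembles the KI 3 Class V columns for Nsd1 and Kdm2a, and KA sham 2 has the highest score (1.07).

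The KA comparison asks the same of rats after kainic acid status epilepticus. edgeR called 0 of the 57 genes, also with any 1 library left out. DESeq2 called Hdac11 lower, and limma-voom called Hdac11 and Sirt2 lower and Hdac8 higher. Hdac11 stood at 194, 217 and 251.4 CPM (lowest, median and highest) in the 7 KA shams and at 182, 157 and 177 CPM in KA 3 Class V. No KA 3 Class V library reached the shams, and the log2 difference was −0.35 ± 0.10 (SE, edgeR unadjusted p = 0.00304, adjusted p = 0.165). Hdac8, a class I deacetylase that acts on cohesin, stood at 11.5, 12.7 and 15.0 CPM in the KA shams and at 16.6, 15.8 and 16.2 CPM in KA 3 Class V, above every sham. Its difference was 0.32 ± 0.11 (edgeR adjusted p = 0.266). Sirt3 was the other gene without overlap, at 71.7, 82.7 and 121 CPM in the KA shams and 71.6, 67.2 and 63.7 CPM in KA 3 Class V (−0.42 ± 0.18, edgeR adjusted p = 0.396). With the covariate of ribosomal protein score Sirt3 was called lower. Genes without overlap numbered 3 of 57 in KA (1 higher and 2 lower, 5.26%, against 5.65% of all genes, 2.95% higher and 2.7% lower).

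Sirt2 stood at 288, 475 and 654 CPM in the KA shams and at 315, 353 and 337 CPM in KA 3 Class V. KA sham 1 (288 CPM) lay below all 3, and the difference was −0.54 ± 0.19 (edgeR adjusted p = 0.265). The 8 oligodendrocyte markers had negative changes here too, with 0 called. Their summed level was 12520 to 34940 CPM in the KA shams and 13750 to 14160 CPM in KA 3 Class V. Of 8 astrocyte markers, Gfap rose (1.24, edgeR adjusted p = 0.0410), and 5 had positive and 3 negative changes. The astrocyte markers summed to 5695 to 10380 CPM in the shams, against 11870 to 14080 CPM in KA 3 Class V. Gfap was the largest single part of these KA 3 Class V sums, at 7391, 9278 and 8669 CPM, against 2264 to 5535 CPM in the shams. Aqp4 and Gja1 also lay above every sham, and the other astrocyte markers overlapped the shams. All 9 microglia markers had positive changes, with 0 called and 5 at an unadjusted edgeR p under 0.05. The part of these markers was not tested. Kdm6b had the largest positive value in KA, 0.35 ± 0.21 (edgeR adjusted p = 0.610), with 43.0, 37.3 and 63.5 CPM in KA 3 Class V and 30.4, 37.4 and 46.7 CPM in the shams. KA 3 Class V 3 alone lay above the shams. Other genes described for kindling gave these log2 differences in KA: Hdac1 at 0.10 ± 0.09, Hdac2 at 0.14 ± 0.12, Hdac4 at −0.02 ± 0.18, Hdac5 at 0.05 ± 0.13, Ezh2 at −0.05 ± 0.17, Eed at 0.19 ± 0.12, Setd7 at −0.18 ± 0.24 and Crebbp at 0.14 ± 0.20 (edgeR adjusted p from 0.636 to 0.986). All 7 genes of the H3K4 and H3K36 demethylase list had positive values, from 0.00 to 0.20, Kdm1a being the largest (0.20 ± 0.11). Sirt1 was at 0.20 ± 0.12. Kdm8 (0.00 ± 0.09 in KA and 0.01 ± 0.09 in KI) and Suv39h1 (−0.05 ± 0.10 and 0.01 ± 0.11) were among the flattest.

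**Figure D4:**
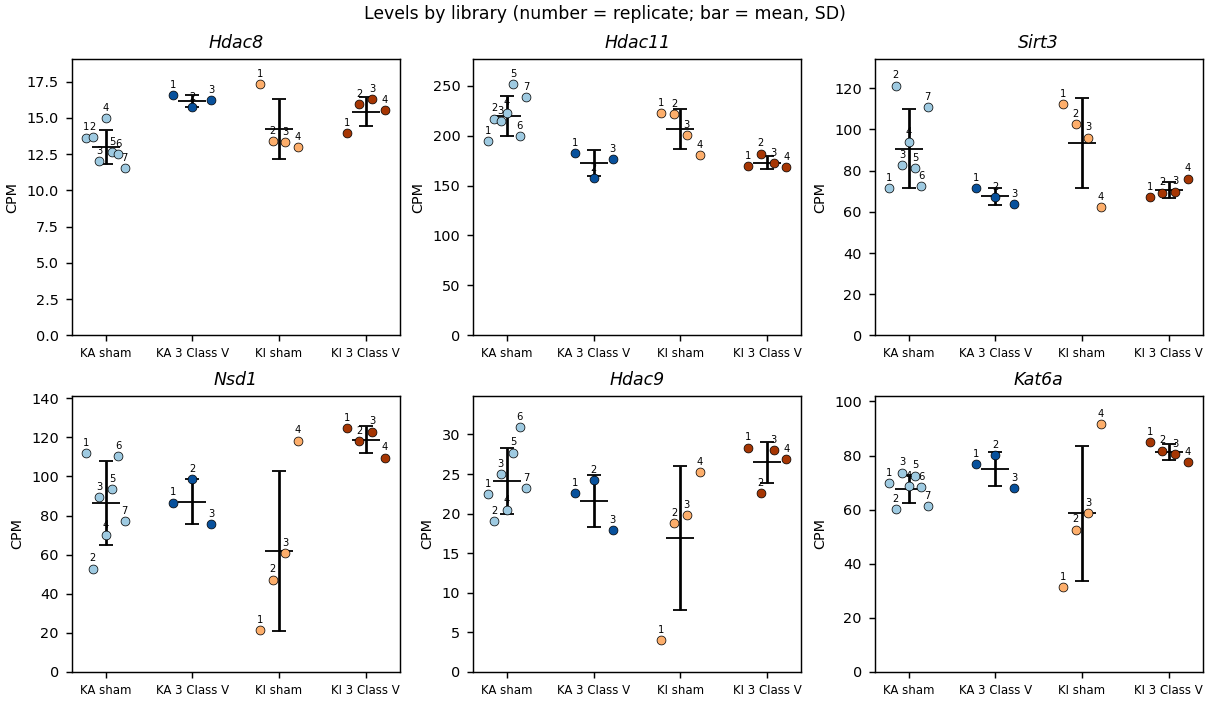
CPM of 6 genes in each of the 18 libraries (numbers give the replicate, the bar the mean and its SD), for the 4 groups. The 3 KA 3 Class V libraries lie above every KA sham for Hdac8 (15.8 to 16.6 CPM) and below every KA sham for Hdac11 (157 to 182 CPM) and Sirt3. In the lower row the KI shams spread from 21.4 to 118 CPM for Nsd1, from 4.01 to 25.3 CPM for Hdac9 and from 31.4 to 91.6 CPM for Kat6a.

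The difference between the models was tested directly, and the models share no sham library. Hdac1 differed: its KA change minus its KI change was 0.49 ± 0.13 in log2 (SE, edgeR adjusted p = 0.0386), from 35.2 ± 2.03 CPM (SD, n = 7) to 37.7 ± 0.895 CPM (SD, n = 3) in KA and from 40.4 to 30.8 CPM in KI. The KI sham mean thus stood above the KA sham mean. KI sham 2 (35.6 CPM) lay inside the KA sham range of 32.2 to 37.5 CPM. Every KI 3 Class V library stood below every KA 3 Class V library. The call held without KA sham 2, 4 or 7 or KI sham 1, 2 or 4. It ended without any of the other 12 libraries (edgeR adjusted p = 0.0655 to 0.137), with 0.45 to 0.53 in log2, and also with no filter on low counts (0.0605). The call was also lost without KI sham 3 and 4 together (edgeR adjusted p = 0.0582) and without the 3 libraries rich in ribosomal RNA-like counts (0.0733). With the replicate number as a block it was lost too (0.385). Microglia markers moved the same way, with 6 of 9 called higher in KA minus KI. Of 8 astrocyte markers, Gfap alone was called, also higher (1.33). The part of these markers was not tested. At an unadjusted p under 0.05 there were 3 further genes: Eed (0.49 ± 0.17), Setd7 (−1.09 ± 0.35) and Hdac4 (−0.60 ± 0.26), with edgeR adjusted p of 0.127, 0.0910 and 0.210. These 4 genes (2 higher and 2 lower) make up 7.02%, against 20.5% of all genes (11.4% higher and 9.17% lower). For Sirt2 the difference was 0.21 ± 0.26 (edgeR adjusted p = 0.695) and for Hdac11 −0.10 ± 0.14 (0.740), so a difference between the models was not detected for either. Over the 57 genes, 37 had the same sign in both models (64.9%, against 57.7% of all genes), 26 positive and 11 negative.

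**Figure D5:**
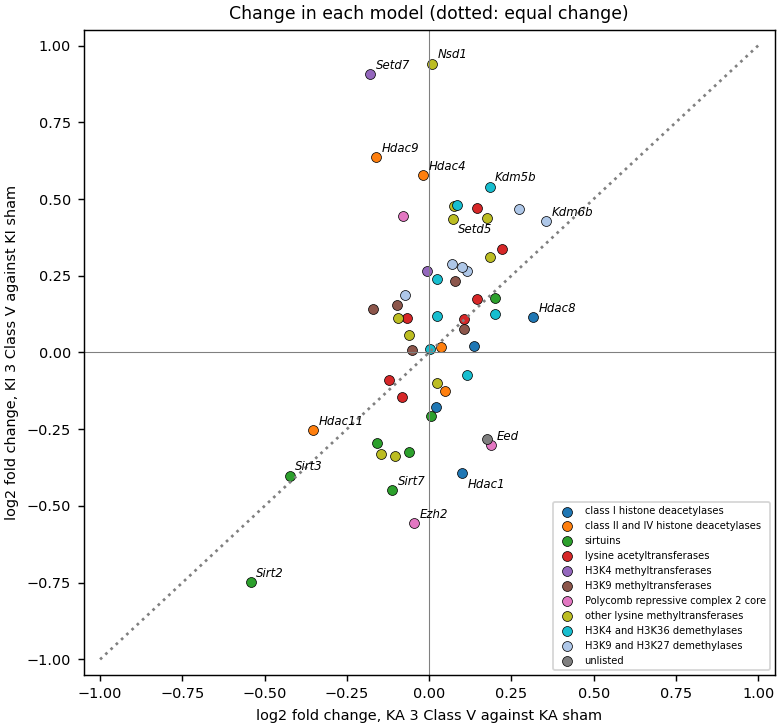
Log2 fold change in KA (horizontal) against that in KI (vertical) for each of the 57 genes, coloured by role, with a dotted line of equal change. Sirt2, Sirt3 and Hdac11 lie in the lower left near the line, Hdac1 lies lower right (0.10 and −0.39), and Setd7 (−0.18 in KA) and Nsd1 (0.01 in KA) lie at the top.

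The genes that work with these enzymes were read from 7 partner lists. Of 92 partners tested, 8 rose and 0 fell in KI (8.7%), against 9.99% of all genes (4.74% higher and 5.25% lower), and 0 were called in KA or in the difference. Of 17 tested corepressor partners, Tbl1xr1, a subunit of the NCoR and SMRT complexes that carry Hdac3, rose (0.47 ± 0.14, edgeR adjusted p = 0.0425). Of 10 H3K4 complex partners, Ncoa6 rose (0.75 ± 0.21). Of 22 histone writers and erasers outside the name rule, 3 rose: the H3K36 methyltransferase Ash1l (0.83 ± 0.18), Prdm2 (0.62 ± 0.18) and Jmjd1c (0.51 ± 0.14). Of 12 acetyl-lysine readers, Mllt3 rose (0.69 ± 0.15). Of 9 DNA-binding recruiters, Mef2a, the partner of class IIa HDACs (0.75 ± 0.22), and Elk1 (0.31 ± 0.09) rose, with edgeR adjusted p from 0.0245 to 0.0471 for these 8. Rest, the repressor that recruits CoREST and Sin3 to neuronal genes, was at −0.05 ± 0.40, at 0.934 CPM in KI sham 1 but 10.98 CPM in KI sham 4 (named after its values were seen). Of 17 Polycomb partners and 5 heterochromatin readers 0 were called. Ash1l stood at 91.1, 96.5, 110 and 165 CPM in the KI shams, against 222, 203, 211 and 189 CPM in the kindled libraries, above every sham, with KI sham 4 again the highest sham.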

How the data were processed

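Left hippocampal RNA of 18 libraries was read as single-end reads of 110 bases from polyA libraries, per the labels' protocols. The deposited table holds raw counts per gene symbol. The submitters' processing notes name build rn6, with Trimmomatic and FastQC for the reads, HISAT2 and featureCounts for alignment and counting, and DESeq2. Not given in the sources used here are the annotation, strand setting, treatment of multi-mapping reads and tool versions, so counts of near-identical or overlapping genes are uncertain. Columns were matched to samples by library name, with 0 left over.

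All 18 libraries entered 1 fit in edgeR 4.0.16 (R 4.3.3) with TMM factors, the filterByExpr filter, group means and robust quasi-likelihood F tests (two-sided, 14 residual degrees of freedom, Benjamini-Hochberg adjustment over 13338 genes). Standard errors were taken as the size of the log2 fold change over the root of F. Log2 CPM used a prior count of 2. Alternatives were DESeq2 1.42.0, limma-voom with sample quality weights (limma 3.58.1), and other scaling factors and filters. Further alternatives were each model alone, a replicate block, libraries left out and a ribosomal protein covariate. Summing Hdac1 with Hdac1l was chosen after seeing the data.

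The members and lists were chosen with earlier results of these data known. Named were called members, the 2 members with the smallest p in each of 10 role lists and 9 much-studied genes. Called partners were named, up to 3 a list. Other members were named after their values were seen. Within groups, all 36 library pairs differed beyond counting error, with chi-square 19.8 to 582.8 times its degrees of freedom. On simulated counts with independent genes, the KI comparison recovered 16.4%, 61.2% and 93.9% of genes changed by 1.5-, 2- and 4-fold, with 8 false calls among 13285 genes. The KA comparison recovered 28.4%, 64.2% and 100.0%, with 6 among 13296. Each fold was given to 66 or 67 genes, far fewer than the 1332 called in KI, so these shares need not hold for that fit.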

Additional observations from a re-analysis of the deposited data

Results flagged for a closer look

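For 12 of 171 sets of values (1 gene in 1 group of 4 or 7 libraries), the highest or lowest library stood far from the others by Dixon's criterion, where chance alone gives about 1 in 20, or 8.55. In KI sham 4, Setd5 stood at 103.1 CPM (other KI shams 70.1 to 73.3), Kdm2a at 92.2 CPM (53.6 to 58.6), Setd2 at 67.2 CPM (37.4 to 41.1) and Kat8 at 24.5 CPM (33.9 to 34.97). In KI sham 1, Hdac2 stood at 103.2 CPM (other KI shams 82.1 to 84.3) and Hdac8 at 17.4 CPM (12.97 to 13.4). In KI 3 Class V 4, Kat7 stood at 60.4 CPM (76.8 to 79.8 in the other 3), Kdm5b at 64.0 CPM (74.0 to 76.0), Sirt4 at 4.61 CPM (3.43 to 3.56) and Sirt7 at 22.3 CPM (17.9 to 18.2). In KA sham 2, Eed stood at 24.2 CPM (other KA shams 16.8 to 19.8) and Setd3 at 222.9 CPM (173.2 to 191.7). The Hdac1 change differed between the models by 0.49 in log2 (KA minus KI, edgeR adjusted p = 0.0386).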

How the results depend on the processing

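Of 2314 values of named genes under the alternatives, 2169 kept their side of the threshold, 62 lost a call, 83 gained one and 0 reversed as a call, and 52 changed sign without a call in either fit. The cause was not tested where a count moved. Some of these fits also held fewer libraries. In KI, 1332 genes and 4 members were called. These became 2915 and 11 with DESeq2, 7355 and 37 with limma-voom, 759 and 2 (Kdm5b and Sirt2) with each model alone, 3740 and 22 without KI sham 3 and 4, 17 and 0 without the 3 libraries rich in ribosomal RNA-like counts, and 118 and 0 with the covariate of ribosomal protein score. Leaving out 1 library gave 9 to 4297 genes and 0 to 23 members. In KA, 23 genes and 0 members became 255 and 1 with DESeq2, 725 and 3 with limma-voom and 213 and 1 with the covariate, and 69 genes without KI sham 3 and 4. Leaving out 1 library gave 9 to 110 genes. For KA minus KI, 507 genes and 1 member became 1113 and 2 with DESeq2, 4770 and 19 with limma-voom and 1106 genes with the covariate. Without KI sham 3 and 4 the members numbered 5 (Hdac4, Kat6a, Kmt5b, Nsd1 and Setd7), and Hdac1 was not among them (edgeR adjusted p = 0.0582). The members numbered 0 without a filter on low counts (edgeR adjusted p = 0.0605 for Hdac1) and 0 without the ribosomal RNA-rich libraries. Leaving out 1 library gave 56 to 897 genes and 0 to 4 members. The model-alone fit gives no value for this difference.

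Libraries share a replicate number across groups, but same-numbered libraries did not deviate together (correlations −0.17 to 0.01, none best with its own number). With the replicate number as a block, edgeR called 3 genes in KA (0 members), 0 genes in KI (0 members, 12 at an unadjusted p under 0.05; DESeq2 and limma-voom without the block are given above) and 11 genes for the difference (0 members). Of 67 genes changed by 1.5-fold on simulated data, most were missed at this number of libraries. That fold is larger than those of most members. Far fewer genes changed there than were called in KI, where Setd5 (fold 1.35) and Hdac1 (fold 0.762) passed. The simulated shares thus need not hold for the members.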
